A study of Homo sapiens with 4 samples.

Results

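The genes described here form the PI3K, AKT and mTORC1 signalling pathway together with the lysosomal machinery that senses amino acids. Of 45 listed genes, 42 were measured, among 22395 genes with a name on the array. A gene was included when its probe set carried that gene's symbol alone, and where a gene had several probe sets the one with the highest mean over the 4 arrays was used. Measured were 9 of 11 PI3K and AKT genes, 4 of 5 Ragulator genes and every listed gene of the other 9 roles; the remaining 3 genes were not analysed here. The cells were Huh7, an established human line from a hepatocellular carcinoma, transfected with pcFLAG-hSTYK1, a plasmid for human STYK1, or with the plasmid pcFLAG alone. Each group held 2 arrays, hybridised with biotin-labelled cDNA from total RNA, and the values are log2 signals. The labels name no stable clone, dose or time, and nothing in them says that the arrays of a group came from separate cultures. The p-values therefore measure only the spread between these arrays, which may be technical.

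Phosphoinositide 3-kinase (PI3K) is recruited to activated receptors, directly or through the insulin receptor substrates, and makes the membrane lipid that brings the kinases PDPK1 and AKT together. Active AKT inhibits the TSC complex, which frees the GTPase RHEB to switch on mTORC1, and it also keeps FOXO transcription factors out of the nucleus. Amino acids act on mTORC1 at the lysosome: Rag GTPases held there by Ragulator recruit the kinase, GATOR1 switches the Rags off, KICSTOR tethers GATOR1 to the lysosome, and GATOR2 counters GATOR1 unless sestrins hold it back. In hepatocytes the PI3K and AKT arm carries the insulin signal that lowers glucose output and raises lipid synthesis.

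STYK1, the transfected receptor-like kinase, read 7.40 and 7.86 in the STYK1 arrays, against 0.26 and 0.61 in the control arrays. Both controls lay under the floor, a background level taken per array as the signal that 95% of 432 probe sets for olfactory receptors did not exceed, which was 0.726 to 0.780 over the 4 arrays. The STYK1 arrays thus exceeded the controls at least 118-fold (limma, adjusted p = 0.0373). The call was lost without any 1 of the 4 arrays, with an adjusted p of 0.347 to 0.724, while the difference stayed between 6.96 and 7.42. Of 11 measured hepatocyte and liver cancer markers, all 11 lay above the floor on every array, with a median signal of 9.47, while of the 7 measured fibroblast, 7 immune and 7 endothelial markers 0 did, and these lists had median signals of 0.61, 0.64 and 0.50. RNA was taken from whole cultures, so fewer cells with a transcript and less transcript per cell cannot be told apart.

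No gene of the pathway passed the test between the groups, and 36 of the 42 members lay above the floor on all 4 arrays. Of the 42 members, 0 were called at an adjusted p under 0.05 (limma), where 0.00187% of all 53617 probe sets were called, and their adjusted p-values ran from 0.979 to 1. At an unadjusted p under 0.05 (limma) there were 5 members, or 11.9%, against 4.64% of all probe sets and 3.72% of named genes. Among the named genes above the floor on all 4 arrays, as most members were, the share was 5.39%. All 5 were higher in the STYK1 arrays, where 2.73% of all probe sets were at this level and higher: the KICSTOR subunit ITFG2, the AKT-activating kinase PDPK1, the transcription factor FOXO1, the adaptor IRS2 and the Ragulator subunit LAMTOR3. Without control replicate 1 the count was 3 (ITFG2, IRS2 and SESN3, of which 2 are among the 5), and without control replicate 2 it was 1, ITFG2. The shared direction also depended on the arrays. Without STYK1 replicate 1, NPRL2, NPRL3 and MLST8 differed by −0.52, −0.50 and −0.34. In the same setting FOXO1, ITFG2, PDPK1, IRS2 and LAMTOR3 differed by 0.63, 0.49, 0.35, 0.30 and 0.19. The list was drawn up with earlier results of these arrays known, among them that of ITFG2, so the share of 11.9% is a description and was not tested. Over the 42 members the median difference, STYK1 minus control, was 0.021 on the log2 scale, with 23 higher and 19 lower, beside a median of 0.0022 over all named genes. The largest difference in size was 0.56 and none reached 2-fold.

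**Figure D1:**
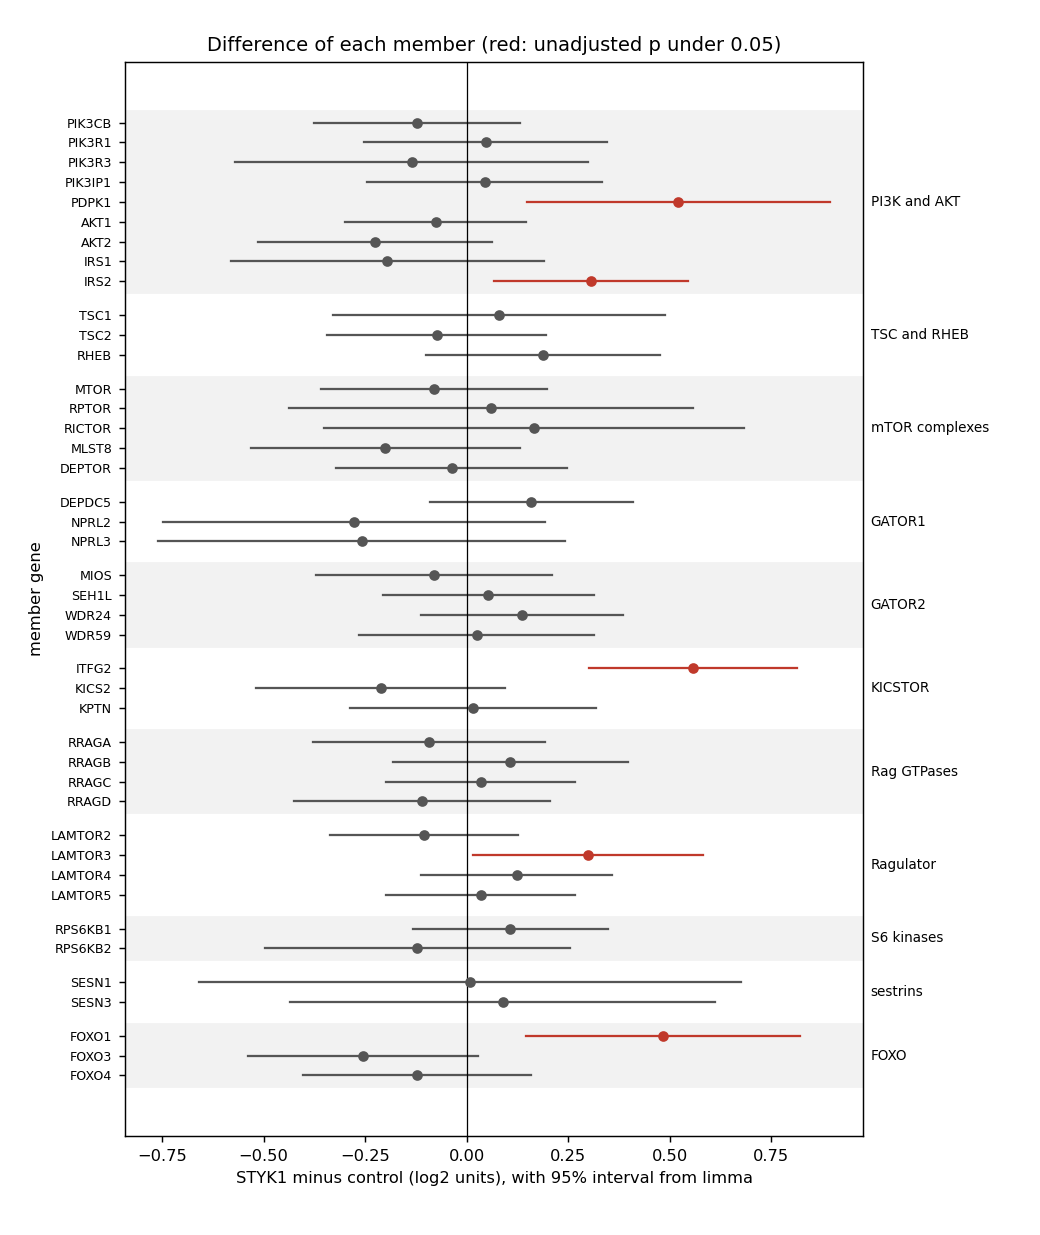
Difference of each of the 42 members between the STYK1 arrays and the control arrays (x axis, log2 units; points, limma estimate; lines, 95% interval), with genes grouped by role from top to bottom. The 5 members at an unadjusted p under 0.05, drawn in red, differ by 0.30 to 0.56, and the intervals of the other 37 members include 0.

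KICSTOR, the complex that holds GATOR1 on the lysosome, had 3 measured subunits, with 1 difference above 0, 1 below and 1 close to it. ITFG2 read 2.53 and 2.39 in the STYK1 arrays and 1.86 and 1.94 in the control arrays, so both STYK1 arrays lay above both controls. Its difference was 0.56 with a standard error of 0.10 (95% interval 0.30 to 0.82), a fold of 1.47 that missed the threshold after adjustment (adjusted p = 0.979 and unadjusted p = 0.00286 by limma). KICS2, the subunit formerly called C12orf66, read 1.52 and 1.37 in the STYK1 arrays and 1.56 and 1.76 in the control arrays. It lay the other way round, with both STYK1 arrays under both controls and a difference of −0.21 (95% interval −0.52 to 0.10). KPTN, or kaptin, read 1.42 and 1.29 in the STYK1 arrays and 1.23 and 1.44 in the control arrays, so the groups overlapped, and its difference was 0.016 (95% interval −0.29 to 0.32). All 3 subunits lay above the floor on every array. A second probe set of ITFG2 differed by 0.14, with groups that overlapped.

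**Figure D2:**
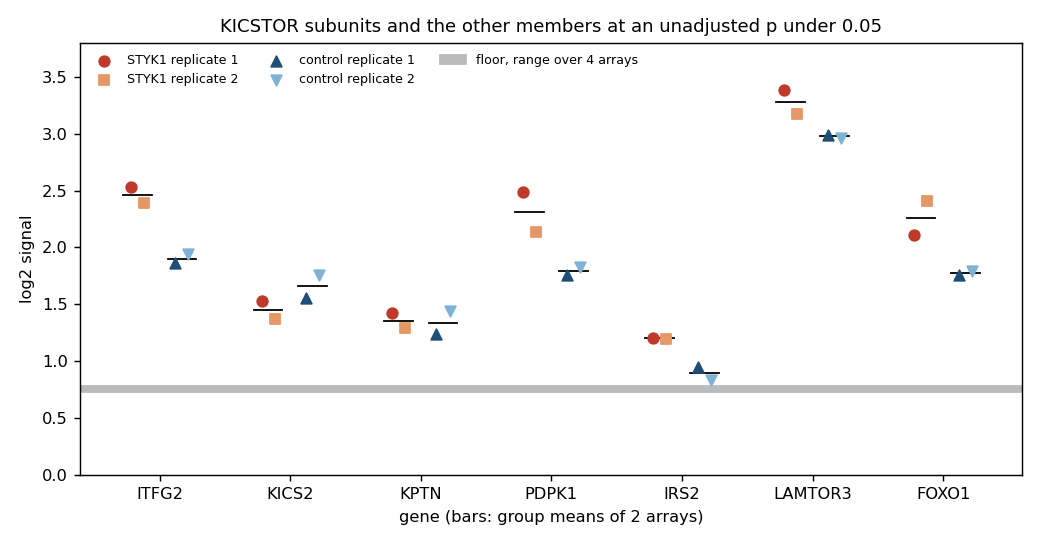
Log2 signal on each array (y axis) for the 3 KICSTOR subunits and the other 4 members at an unadjusted p under 0.05 (x axis); symbols are arrays, black bars are group means of 2 arrays and the grey band is the floor. ITFG2, PDPK1, IRS2, LAMTOR3 and FOXO1 have both STYK1 arrays above both control arrays, KICS2 has them below, and KPTN overlaps.

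The probe sets used for the subunits of KICSTOR had unlike differences, of which none passed adjustment. The 300 bases around the start of each of these genes (250 before and 50 after it) are printed here for that reason. They are RefSeq sequences of the assembly GRCh38.p14, 5′ to 3′ on the gene's strand, for ITFG2 at chr12:2812418-2812717 on the plus strand, KICS2 at chr12:64222247-64222546 on the minus strand and KPTN at chr19:47484170-47484469 on the minus strand. Capitals mark matches to 5 short motifs searched on both strands: GTAAACA, bound by FOXO factors, CACGTG, the E-box core bound by TFEB among others, CCGGAAG, bound by ETS factors, TGATGCAA, bound by ATF4, and TGACTCA, bound by AP-1.
ITFG2: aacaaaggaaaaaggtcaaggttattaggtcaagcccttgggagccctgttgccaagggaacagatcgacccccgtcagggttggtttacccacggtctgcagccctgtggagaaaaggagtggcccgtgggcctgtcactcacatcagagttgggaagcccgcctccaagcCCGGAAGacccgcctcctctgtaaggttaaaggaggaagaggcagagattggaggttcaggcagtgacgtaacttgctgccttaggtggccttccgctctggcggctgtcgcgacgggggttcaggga
KICS2: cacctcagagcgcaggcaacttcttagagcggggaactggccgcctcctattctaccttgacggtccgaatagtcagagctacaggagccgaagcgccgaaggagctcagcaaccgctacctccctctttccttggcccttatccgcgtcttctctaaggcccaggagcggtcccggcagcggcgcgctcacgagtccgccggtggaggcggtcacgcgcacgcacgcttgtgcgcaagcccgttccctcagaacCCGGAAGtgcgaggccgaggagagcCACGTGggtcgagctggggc
KPTN: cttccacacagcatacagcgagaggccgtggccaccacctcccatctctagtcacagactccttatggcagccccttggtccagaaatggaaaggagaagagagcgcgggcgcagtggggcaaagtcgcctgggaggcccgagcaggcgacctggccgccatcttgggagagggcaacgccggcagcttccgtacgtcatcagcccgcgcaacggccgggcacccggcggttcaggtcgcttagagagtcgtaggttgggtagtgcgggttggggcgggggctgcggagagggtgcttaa
The ITFG2 window held CCGGAAG once, beginning at position −78 from the gene start, the KICS2 window held CCGGAAG at position 6 and CACGTG at position 31, and the KPTN window held none of these letters. Over 62 windows of 40 listed genes, CCGGAAG was in 17.7% against 10.3% of all 35116 windows, CACGTG in 12.9% against 7.26%, GTAAACA in 4.84% against 3.42%, TGACTCA in 4.84% against 4.95% and TGATGCAA in 1.61% against 0.866%. The motifs were chosen with the results known, and a match is a description of the letters, not evidence of binding.

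At the head of the pathway, 2 of 9 measured PI3K and AKT genes were higher at an unadjusted p under 0.05 and 0 were lower, beside 2.73% and 1.91% of all probe sets, and the median difference of the role was −0.077. PDPK1, the kinase that phosphorylates AKT in its activation loop, read 2.49 and 2.14 in the STYK1 arrays and 1.76 and 1.83 in the control arrays. Its groups did not overlap, although the STYK1 arrays were 0.35 apart, and its difference was 0.52 with a standard error of 0.14, at an unadjusted p of 0.0163 (adjusted p = 0.979, limma). IRS2, the insulin receptor substrate whose transcript FOXO factors are known to raise in liver, read 1.20 and 1.19 in the STYK1 arrays and 0.95 and 0.84 in the control arrays. Both STYK1 arrays lay above both controls, all 4 close to the floor, and the difference was 0.31 with a standard error of 0.09, at an unadjusted p of 0.0218 (adjusted p = 0.979, limma).

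IRS1 and both measured AKT kinases had differences below 0, unlike PDPK1 and IRS2. IRS1, the other measured substrate, read 1.44 and 1.78 in the STYK1 arrays and 1.88 and 1.73 in the control arrays, which overlapped. AKT2, the isoform most tied to insulin action in liver, read 0.87 and 0.80 in the STYK1 arrays and 1.16 and 0.95 in the control arrays, a difference of −0.23 (95% interval −0.52 to 0.06) with groups that did not overlap. AKT1 read 1.90 and 1.91 in the STYK1 arrays and 2.01 and 1.95 in the control arrays, also without overlap and with a difference of −0.077. Among the PI3K subunits, the regulatory subunit PIK3R1 read 5.30 and 5.54 in the STYK1 arrays and 5.35 and 5.39 in the control arrays, with overlapping groups and a difference of 0.047. The catalytic subunit PIK3CB differed by −0.12 and the regulatory subunit PIK3R3 by −0.14, each with an interval that includes 0. PIK3IP1, a membrane inhibitor of PI3K, lay under the floor on all 4 arrays, so no fold is given.

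The FOXO transcription factors, which AKT phosphorylates and keeps in the cytoplasm, had differences of both signs, those below 0 in genes near the floor. FOXO1, known from mice as the main FOXO factor of insulin-regulated glucose production in liver, read 2.11 and 2.41 in the STYK1 arrays and 1.76 and 1.79 in the control arrays. The groups did not overlap, and the difference was 0.48 with a standard error of 0.13, at an unadjusted p of 0.0147 (adjusted p = 0.979, limma). FOXO3 read 0.78 and 0.64 in the STYK1 arrays and 1.05 and 0.88 in the control arrays, with STYK1 replicate 2 under the floor. Its difference was −0.26 (95% interval −0.54 to 0.03), a value that may belong to FOXO3B, a close copy of the gene. A second FOXO3 probe set, above the floor on 1 array, differed the other way by 0.19. FOXO4 read 0.64 in both STYK1 arrays and 0.66 in control replicate 1, all under the floor, and 0.87 in control replicate 2, so no fold is given. The role thus had 1 gene of 3 above the floor on every array, FOXO1.

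**Figure D3:**
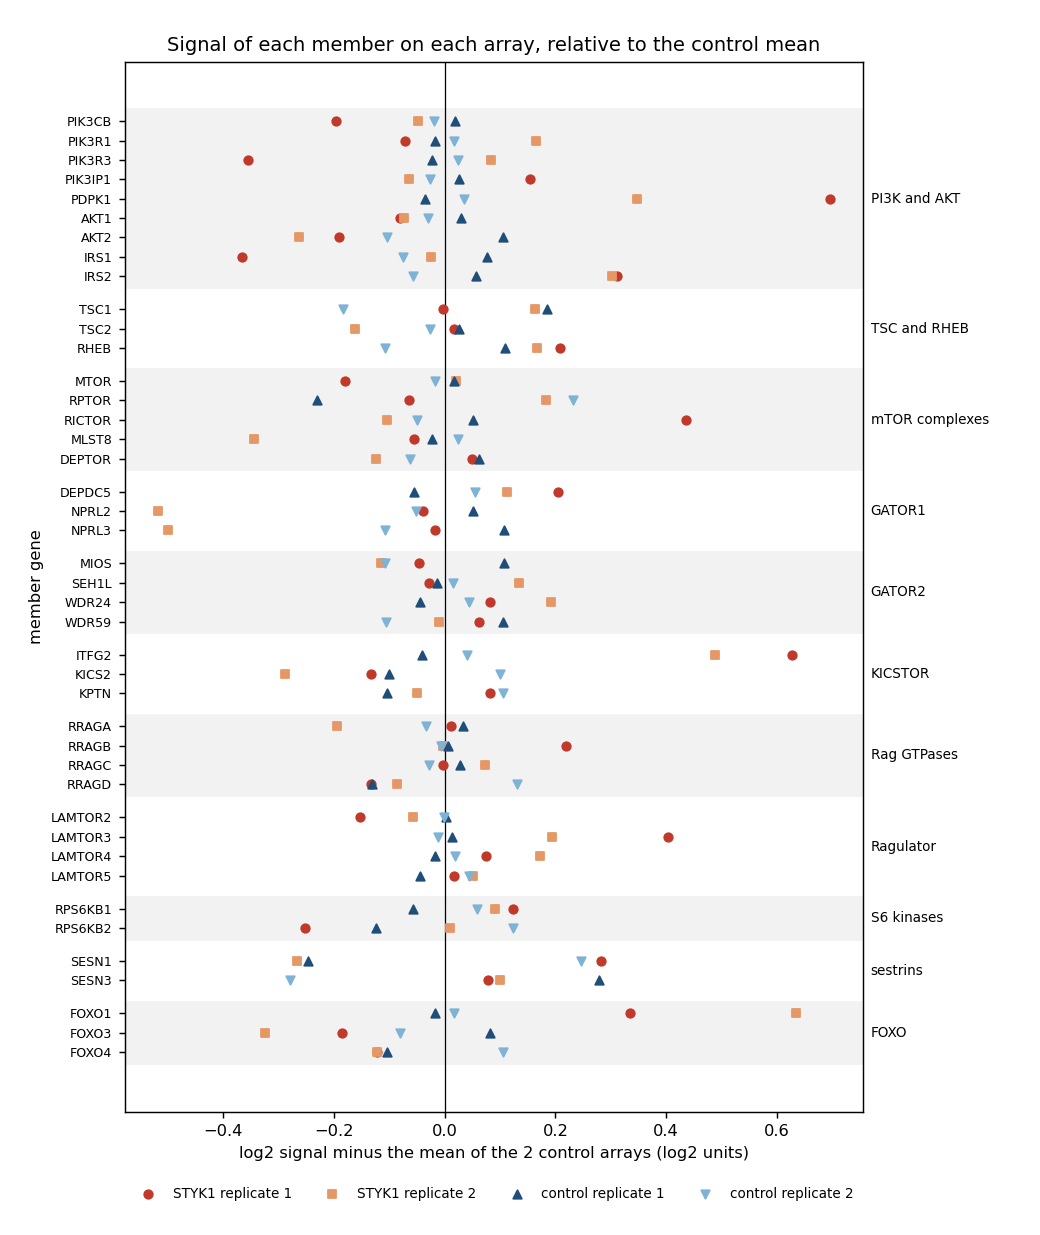
Log2 signal of each of the 42 members on each array, given relative to the mean of the 2 control arrays (x axis, log2 units), with genes grouped by role from top to bottom and symbols for arrays. ITFG2, PDPK1 and FOXO1 have both STYK1 arrays at least 0.33 above the control mean, while NPRL2 and NPRL3 are low in STYK1 replicate 2 and near the controls in STYK1 replicate 1.

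The TSC complex and RHEB, the switch between AKT and mTORC1, had a median difference of 0.080 and no member at an unadjusted p under 0.05. RHEB read 1.08 and 1.04 in the STYK1 arrays and 0.98 and 0.76 in the control arrays. Its groups did not overlap, with control replicate 2 close to the floor, and the difference was 0.19 (95% interval −0.10 to 0.48), or 0.079 without control replicate 2. TSC1, which stabilises TSC2, read 3.54 and 3.71 in the STYK1 arrays and 3.73 and 3.36 in the control arrays, so both STYK1 arrays lay between the controls. TSC2, the subunit that turns RHEB off, differed by −0.073 (95% interval −0.34 to 0.20).

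The mTOR complexes had 5 measured genes, with a median difference of −0.037 that is the value of DEPTOR, a gene under the floor, and of −0.011 over the 4 others. MLST8, a subunit of both complexes, read 5.90 and 5.61 in the STYK1 arrays and 5.93 and 5.98 in the control arrays. Both STYK1 arrays were below both controls, STYK1 replicate 1 by little, and the difference was −0.20 (95% interval −0.53 to 0.13), or −0.056 without STYK1 replicate 2. The kinase MTOR itself differed by −0.080 and RPTOR, the scaffold of mTORC1, by 0.059. RICTOR, the scaffold of mTORC2, read 5.03 in STYK1 replicate 1 and 4.49 in STYK1 replicate 2, with 4.65 and 4.55 in the control arrays, so the controls lay between the STYK1 arrays. DEPTOR, an inhibitor of both complexes, was under the floor on all 4 arrays.

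GATOR1, which switches RagA and RagB off, had the lowest median of the 11 roles at −0.26, and it turned on 1 array, STYK1 replicate 2. NPRL2 read 1.32 in STYK1 replicate 1 and 0.84 in STYK1 replicate 2, against 1.41 and 1.30 in the control arrays. NPRL3 likewise read 4.14 and 3.66 in the STYK1 arrays, against 4.27 and 4.05 in the control arrays. For both subunits STYK1 replicate 2 was low and STYK1 replicate 1 lay within the range of the controls, so the groups overlapped and the 95% intervals (−0.75 to 0.19 and −0.76 to 0.24) included 0. Without STYK1 replicate 2 the median of GATOR1 was −0.017, and without STYK1 replicate 1 it was −0.50. DEPDC5, the subunit of GATOR1 that contacts the Rag GTPases, read 1.26 and 1.17 in the STYK1 arrays and 1.00 and 1.11 in the control arrays, which did not overlap; it lay the opposite way from NPRL2 and NPRL3, with a difference of 0.16 (95% interval −0.09 to 0.41).

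GATOR2, which acts against GATOR1, had differences of −0.080 to 0.14 over 4 genes and a median of 0.039. WDR24 read 1.89 and 2.00 in the STYK1 arrays and 1.77 and 1.85 in the control arrays, without overlap. SEH1L, which also serves in the nuclear pore, read 7.30 and 7.47 in the STYK1 arrays and 7.32 and 7.35 in the control arrays, which overlapped. MIOS and WDR59 overlapped as well, with differences of −0.080 and 0.025. Over the 7 GATOR genes the median was 0.025, with 4 higher and 3 lower.

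The Rag GTPases, which recruit mTORC1 to the lysosome, had no member whose groups were apart, and differences of −0.11 to 0.11. RRAGD read 4.59 and 4.64 in the STYK1 arrays and 4.60 and 4.86 in the control arrays, so control replicate 2 alone stood higher. RRAGA and RRAGC differed by −0.092 and 0.035. RRAGB lay above the floor on 2 of 4 arrays, 1 in each group.

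Ragulator, the lysosomal anchor of the Rags, had 4 measured subunits, of which 3 had groups that did not overlap, beside 32.8% of all probe sets, and a median difference of 0.079. LAMTOR3 read 3.38 and 3.17 in the STYK1 arrays and 2.99 and 2.96 in the control arrays, with both STYK1 arrays above both controls. Its difference was 0.30 with a standard error of 0.11, at an unadjusted p of 0.0420 (adjusted p = 0.979, limma). LAMTOR3 is also a scaffold for MEK and ERK signalling on endosomes. LAMTOR4 differed by 0.12 and LAMTOR2 by −0.10, in both cases without overlap and with intervals that include 0, and LAMTOR5 differed by 0.034 with overlap.

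Downstream and upstream of the lysosome, the S6 kinases and the sestrins gave small differences. RPS6KB1, the S6 kinase that mTORC1 activates, read 4.62 and 4.59 in the STYK1 arrays and 4.44 and 4.55 in the control arrays, a difference of 0.11 (95% interval −0.13 to 0.35) without overlap. RPS6KB2 read 3.19 and 3.45 in the STYK1 arrays and 3.32 and 3.57 in the control arrays, with overlap. The sestrins varied within the groups instead: SESN1 read 1.36 and 0.81 in the STYK1 arrays and 0.83 and 1.33 in the control arrays, so each group held 1 high and 1 low array. SESN3 read 1.03 and 1.05 in the STYK1 arrays and 1.23 and 0.67 in the control arrays, with the controls on either side. The differences were 0.0082 for SESN1 (95% interval −0.66 to 0.67) and 0.089 for SESN3 (95% interval −0.43 to 0.61).

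How far the arrays of a group differed from each other sets the limit for all these values. The gap between the STYK1 arrays had a median of 0.16 over the 42 members and the gap between the control arrays one of 0.10, beside a median absolute difference between the groups of 0.12. The STYK1 arrays had the larger gap for 25 of the 42 members and for 11494 of the 22395 named genes. The difference between the groups was larger than both gaps for 13 members, or 31%, against 21.7% of all probe sets and 21.7% of named genes. They were ITFG2, KICS2, PDPK1, AKT1, AKT2, IRS2, DEPDC5, WDR24, LAMTOR2, LAMTOR3, LAMTOR4, FOXO1 and FOXO3. The groups did not overlap for 18 members, or 42.9%, 10 of them higher and 8 lower, where 32.8% of all probe sets did not overlap (17.4% higher and 15.4% lower). For 2 arrays against 2 the smallest p of an exact two-sided permutation test is 0.333, so single genes have no such test here.

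**Figure D4:**
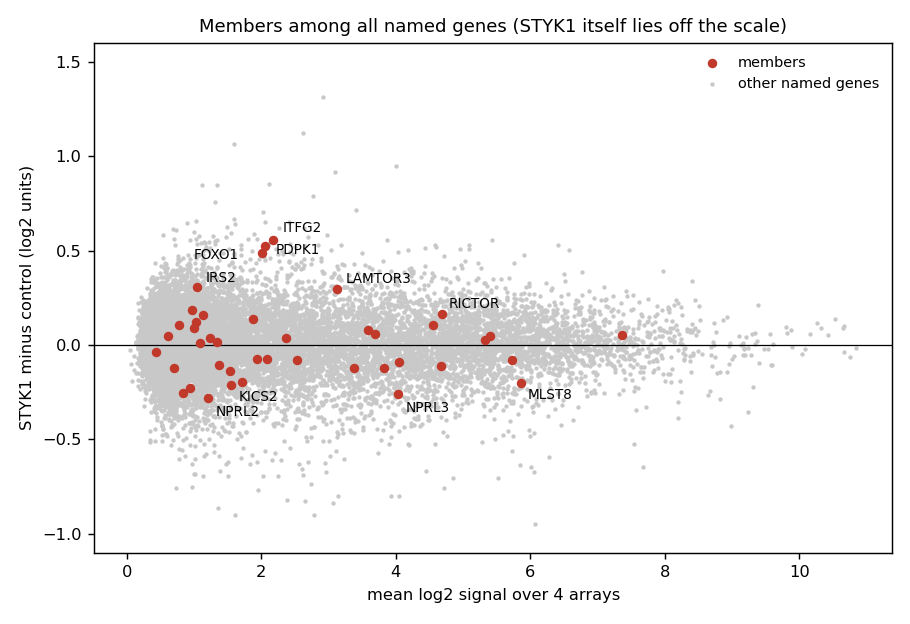
Difference between the STYK1 arrays and the control arrays (y axis, log2 units) against the mean log2 signal over the 4 arrays (x axis) for the named genes in grey and the 42 members in red; STYK1 lies off the scale. The members run from −0.28 for NPRL2 to 0.56 for ITFG2 and lie inside the cloud of other genes. ITFG2, PDPK1 and FOXO1 lie in its upper part, at percentiles 99.8, 99.7 and 99.6 of the differences of named genes.

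Other probe sets of ITFG2, PDPK1 and FOXO3 did not give the same picture. ITFG2 had a second probe set, which read 1.21 and 1.50 in the STYK1 arrays and 1.35 and 1.09 in the control arrays. Those groups overlapped, and the difference was 0.14 with a standard error of 0.15 and an adjusted p of 0.985 (limma), against 0.56 for the probe set used. The antisense gene ITFG2-AS1 lay under the floor on all 4 arrays, with a difference of 0.024.

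PDPK1 has a near-identical copy, the pseudogene PDPK2P, and a probe set that the platform annotation assigns to both read 5.68 and 5.51 in the STYK1 arrays and 5.66 and 5.91 in the control arrays. There the groups overlapped and the difference was −0.19 with a standard error of 0.13, opposite in sign to the 0.52 of the probe set named for PDPK1 alone. FOXO3 had a second probe set with 0.78 and 0.66 in the STYK1 arrays and 0.51 and 0.55 in the control arrays. It lay above the floor on 1 of the 4 arrays, STYK1 replicate 1. Its groups did not overlap, and its difference was 0.19, opposite in sign to the −0.26 of the probe set used. FOXO3 also has a close copy, FOXO3B, and the sources used here do not say which of them each probe set detects. The −0.26 given for FOXO3 may therefore be a value of the copy. It enters the median of the FOXO role, the counts of lower members and the list of members whose difference exceeded both gaps. The values of PDPK1 and FOXO3 are uncertain because of these copies.

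**Figure D5:**
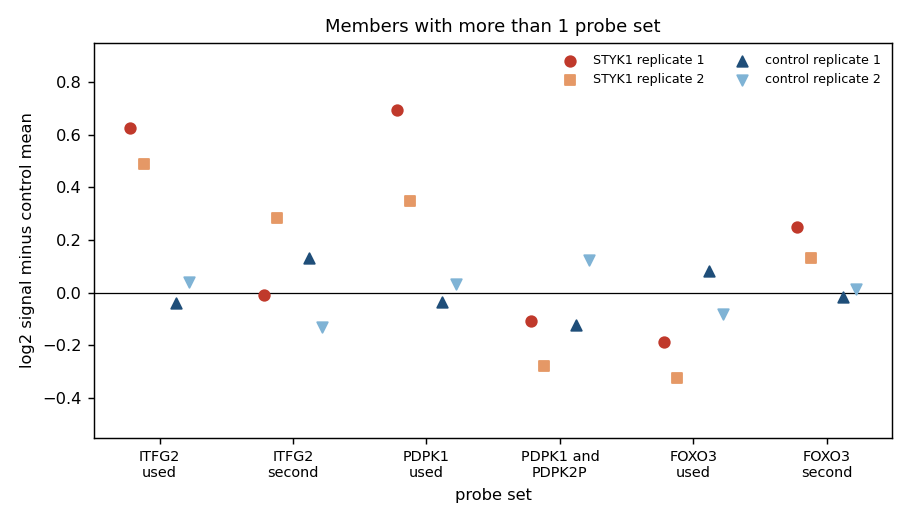
Log2 signal on each array relative to the mean of the 2 control arrays (y axis) for the probe sets of ITFG2, PDPK1 and FOXO3 (x axis), including the probe set shared by PDPK1 and PDPK2P. The second ITFG2 probe set overlaps between the groups, and the STYK1 arrays of the shared PDPK1 probe set lie below 0. The second FOXO3 probe set, above the floor on 1 array alone, has both STYK1 arrays above both controls.

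Regrouped by their effect on mTORC1, after the values were seen, the genes that restrain it (TSC1, TSC2, DEPTOR, GATOR1, KICSTOR and the sestrins) had 6 higher and 5 lower of 11, with a median difference of 0.0082. The genes that carry its activation (RHEB, MTOR, RPTOR, MLST8, GATOR2, the Rags and Ragulator) had 10 higher and 6 lower of 16, with a median of 0.034.

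Other genes of the pathway, from lists drawn up by function, had 0 members at an adjusted p under 0.05 and 0 at an unadjusted p under 0.05 (limma), beside 0.00187% and 4.64% of all probe sets. Among 20 measured receptors, phosphatases and other PI3K and AKT pathway genes, 11 were higher and 9 lower, with a median of 0.0098. The lowest p-values there were those of IGF1R and PPP2R2A. IGF1R, the IGF1 receptor, read 3.22 and 3.35 in the STYK1 arrays and 3.50 and 3.48 in the control arrays. PPP2R2A, a regulatory subunit of the phosphatase PP2A, read 0.79 in both STYK1 arrays, barely above the floor. Both its control arrays lay under the floor, so no fold is given. Among 20 measured genes of the mTOR complexes and nutrient sensing, 10 were higher and 10 lower, with a median of 0.0041. SEC13, the GATOR2 subunit shared with the COPII coat, read 4.89 and 4.93 in the STYK1 arrays and 5.25 and 5.03 in the control arrays, and TELO2, an assembly factor of mTOR, differed by −0.14; in both genes the STYK1 arrays lay below the controls.

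Of 14 measured mTORC1 effectors 6 were higher and 8 lower, with a median of −0.051. RPS6, the ribosomal protein that S6 kinases phosphorylate, read 4.28 and 4.01 in the STYK1 arrays and 3.68 and 3.96 in the control arrays, a difference of 0.32 with groups that came close without overlap (limma, adjusted p = 0.979). PATL1, a factor of mRNA decay, differed by −0.14. Of 19 measured FOXO target genes, 12 lay above the floor on all 4 arrays. Of the 19, 13 were higher and 6 lower, and the median of 0.086 is the value of TXNIP, a gene under the floor. Their median deviation from each gene's own mean was 0.033 and −0.0039 in the STYK1 arrays, against −0.064 and 0.0013 in the control arrays. The list therefore did not separate the groups: STYK1 replicate 1 stood high, control replicate 1 low, and the other arrays lay between. GADD45A, a growth arrest gene, read 7.02 and 6.97 in the STYK1 arrays and 6.79 and 6.78 in the control arrays, and PPARGC1A, the coactivator of hepatic glucose production, differed by 0.19.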

How the data were processed

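Per the labels' protocols, RNA of Huh7 cells was amplified, turned into cDNA and labelled with biotin for whole-transcript arrays. Values for the 4 arrays were deposited in a single table and are read here as log2 signals, the base being inferred from their range. Per the submitters' processing notes the Transcriptome Analysis Console was used; its version, the summarization and the normalization were not given in the sources used here. Array medians were 0.615 to 0.629 and correlations between arrays 0.985 to 0.987, so no further normalization was applied. No 2 arrays were copies: 170 to 242 probe sets had equal values in a pair. Precision is limited by the few arrays: a difference had a standard error of 0.11 log2 units in the median.

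Probe sets with exactly 1 gene symbol (23871 of 53617) were named from the platform annotation, with 90 symbols updated by Entrez ID through RefSeq. A two-sided test was made in limma 3.58.1 under R 4.3.3, without trend or covariate, with p-values adjusted after Benjamini and Hochberg over all 53617 probe sets, 2 residual degrees of freedom and a prior of 2.71. The fit was tested on simulated data. Signals of different probe sets are not comparable as levels. Values on every array are given for members with an unadjusted p under 0.05, for KICSTOR, and in each other role for the members of largest difference and of highest mean, and up to 2 genes are named per related list, by smallest p; other members with such values were picked after these were seen. The members and lists were chosen with earlier results of these data known. Alternatives were a variance trend, quantile normalization, centring of the arrays, a replicate block, a filter at the floor, the mean over a gene's probe sets and leaving out each array.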

Additional observations from a re-analysis of the deposited data

How the results depend on the processing

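In each of the 10 alternatives 0 members were called, and ITFG2, PDPK1, FOXO1, IRS2 and LAMTOR3 stayed higher in the STYK1 arrays. The count at an unadjusted p under 0.05 was 4 or 5 in the 6 alternatives that kept all arrays. With 1 array left out it was 1 to 6, on the assumption that a single array varies as much as those of the other group: 3 without control replicate 1 (2 of them among the 5), 1 (ITFG2) without control replicate 2, and 6 without either STYK1 replicate, with 3 of the 5 among those without STYK1 replicate 1 and 4 among those without STYK1 replicate 2. ITFG2 differed by 0.35 as the mean of its 2 probe sets. Leaving out 1 array gave 27 to 33 members without overlap, since 3 arrays overlap less often by construction, and a STYK1 difference of 6.96 to 7.42 that no longer passed. The same step gave medians of −0.0073 to 0.0078 over all members, −0.11 to −0.024 for PI3K and AKT, −0.10 to 0.26 for TSC and RHEB, −0.11 to −0.056 for the mTOR complexes, −0.50 to −0.017 for GATOR1, −0.088 to 0.12 for KICSTOR, −0.097 to 0.084 for the S6 kinases, −0.083 to 0.18 for the sestrins, 0.046 to 0.11 for Ragulator, −0.0066 to 0.066 for GATOR2, −0.045 to 0.014 for the Rags and −0.17 to −0.018 for FOXO. Ranges for single genes were taken only for the members that the rule above picked for values on every array. Those of them whose sign turned with 1 array left out ran from −0.071 to 0.17 for PIK3R1, −0.10 to 0.26 for TSC1, −0.029 to 0.13 for SEH1L, −0.088 to 0.12 for KPTN, −0.24 to 0.021 for RRAGD, −0.25 to 0.0095 for RPS6KB2, −0.27 to 0.28 for SESN1 and −0.19 to 0.37 for SESN3. Other members turned as well, among them MTOR and RICTOR. In STYK1 replicate 2 alone MTOR read 5.79, above its control mean of 5.77, and RICTOR read 4.49, below its control mean of 4.60. Quantile normalization gave medians of −0.017 over all members and −0.061 for the Rags, and differences of −0.019 for KPTN and −0.024 for SESN1. Centring the arrays gave a median of 0.025 over all members, and the mean over probe sets one of −0.032 for FOXO. The same replicate numbers in both groups do not mark a shared culture in the labels, and deviations of same-numbered arrays correlated at −0.044. A replicate block left the STYK1 difference at 7.19 and moved its adjusted p to 0.0637, with 4 members at an unadjusted p under 0.05; the cause was not tested. Several members lie near the floor on some or all arrays, where a difference can be understated. Among them are IRS2, AKT2, RHEB, FOXO3, FOXO4, RRAGB, LAMTOR4, SESN1, SESN3 and, in STYK1 replicate 2, NPRL2.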
